A study of Homo sapiens with 62 samples.

Results

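The genes described here are 37 transcriptional targets of the tumour suppressor p53, taken by gene name from a given list and found by that name in every count table. They are 37 of 58735 genes listed for A2058, AGS, HCT116 and MCF10A, and 37 of 48162 listed for A2780. By role, 7 act in cell-cycle arrest, 13 in cell death, 5 in DNA repair and 12 in metabolism, secretion or protection from stress.

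The study removed an extra copy of a chromosome arm from human cell lines with the ReDACT engineering techniques, in versions NS, TR and CO, and sequenced messenger RNA of 62 libraries. Parental cells that keep the gain (WT) were compared with single-cell clones that lost it, called 1q-loss, 7p-loss or 8q-loss after the arm. A2058 melanoma cells gave 4 libraries of WT, 4 from 2 clones without the extra 1q, 6 from 3 clones without the extra 7p and 4 from 2 clones without the extra 8q. HCT116 colorectal cancer cells gave 2 WT libraries and 4 of 8q-loss from 2 clones. AGS gastric cancer cells gave 1 WT, 2 TK+ and 5 1q-loss libraries of 5 clones, and A2780 ovarian cancer cells gave 2 WT, 2 TK+ and 6 1q-loss libraries of clones 2, 5 and 6. TK+ cells carry the integrated TK cassette and kept the gain. MCF10A, an immortalised breast epithelial line, gave 2 WT and 8 1q-loss libraries of 4 clones. The same numbers came from MCF10A cells with hRASV12, a constitutively active HRAS protein (hRas below). ReDACT-CO gave all A2058 and HCT116 clones, AGS clone 11 and MCF10A clone 4 with and without hRas. ReDACT-TR gave the other MCF10A clones, and ReDACT-NS the A2780 clones and the other AGS clones. Within a line, version and clone cannot be told apart. Each clone grew from a single cell, so its libraries share whatever else that cell carried, and p-values measure the spread between these libraries.

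p53 is held at low level by MDM2, which marks it for degradation, and by MDM4, which blocks its activity. When damage or another stress frees it, p53 binds paired decamers in the DNA of its targets and raises their transcription. Its targets halt the cycle (CDKN1A, which encodes the kinase inhibitor p21), start death at the mitochondrion (BAX, BBC3), repair DNA (DDB2, XPC) or act on metabolism and neighbouring cells (SESN1, GDF15). MDM4 lies on 1q, as do the members BTG2 and PHLDA3, and the members RRM2B and TP53INP1 lie on 8q.

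Of the 37 members, 31 were found in RefSeq's table of human promoters (GRCh38.p14, 250 bases before to 50 after each start). These windows were scanned along the gene's strand for the 20-base p53 element, allowing 3 mismatches and none at the fixed C and G of either decamer. The element's pattern is its own reverse complement, so a scan of the other strand finds the same sites. Of all 35116 windows 392 held a match (1.12%), and 8 members had one, namely ABHD4, AEN, DDB2, FDXR, GDF15, PMAIP1, RPS27L and SESN1. The matches of 5 members that recur in the results are printed here along the gene's strand, with the fixed C and G in capitals.
DDB2, chr11:47214969-47214988, plus strand: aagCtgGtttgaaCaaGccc
AEN, chr15:88621306-88621325, plus strand: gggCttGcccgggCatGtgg
GDF15, chr19:18386186-18386205, plus strand: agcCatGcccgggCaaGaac
RPS27L, chr15:63157527-63157546, minus strand: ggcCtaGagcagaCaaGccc
FDXR, chr17:74872996-74873015, minus strand: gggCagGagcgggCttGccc
The DDB2 match differs from the element at 1 base, and 19 of all windows (0.0541%) held a match with at most 1 mismatch. The AEN match differs at 2 bases. The other matches differ at 3 bases. A match is a resemblance of letters in a short window, and p53 elements in introns or farther upstream, such as those of CDKN1A, lie outside it.

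Totals ran from 15042068 to 30984036 counts per library. Levels are given as CPM, counts relative to the library total, scaled by the trimmed mean of M-values (TMM) within a cell line, and a call means that edgeR's quasi-likelihood test gave an adjusted p below 0.05. In each clone the median of the targeted arm lay below that of the other arms, with shifts of -0.652 to -0.301 on the log2 scale. MCF10A hRas 1q-loss clone 2, all 5 AGS 1q-loss clones, with clones 1 and 4 farthest in KRT5, CDH17 and TFF1, and both A2058 1q-loss clones stood apart from their parental cells in lineage markers, and the HCT116 clones from each other, with values given beside their results. Of the markers fixed for each tissue, A2780 held PAX8, WT1, MUC16, KRT7 and EPCAM at or below 1.47 CPM in every library. Of the fibroblast genes, it held DCN at 151 to 344 CPM, LUM at 100 to 239 and COL1A1 at 16.8 to 88.3. The basal keratins KRT5 and KRT14 reached 4.54 and 2.66 CPM in A2780, with medians of 0.134 and 0.0223. VIL1, CDH17 and LGALS4 stayed at or below 1.1 CPM in HCT116, where CDX2 and EPCAM were present at 32.4 and 53.8 CPM or more. Of the gastric list in AGS, EPCAM was at 601 to 868 CPM, TFF1 at 0 to 28.5 and MUC5AC at 0.0645 to 1.93, while CLDN18 and TFF2 stayed at or below 0.237.

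**Figure D1:**
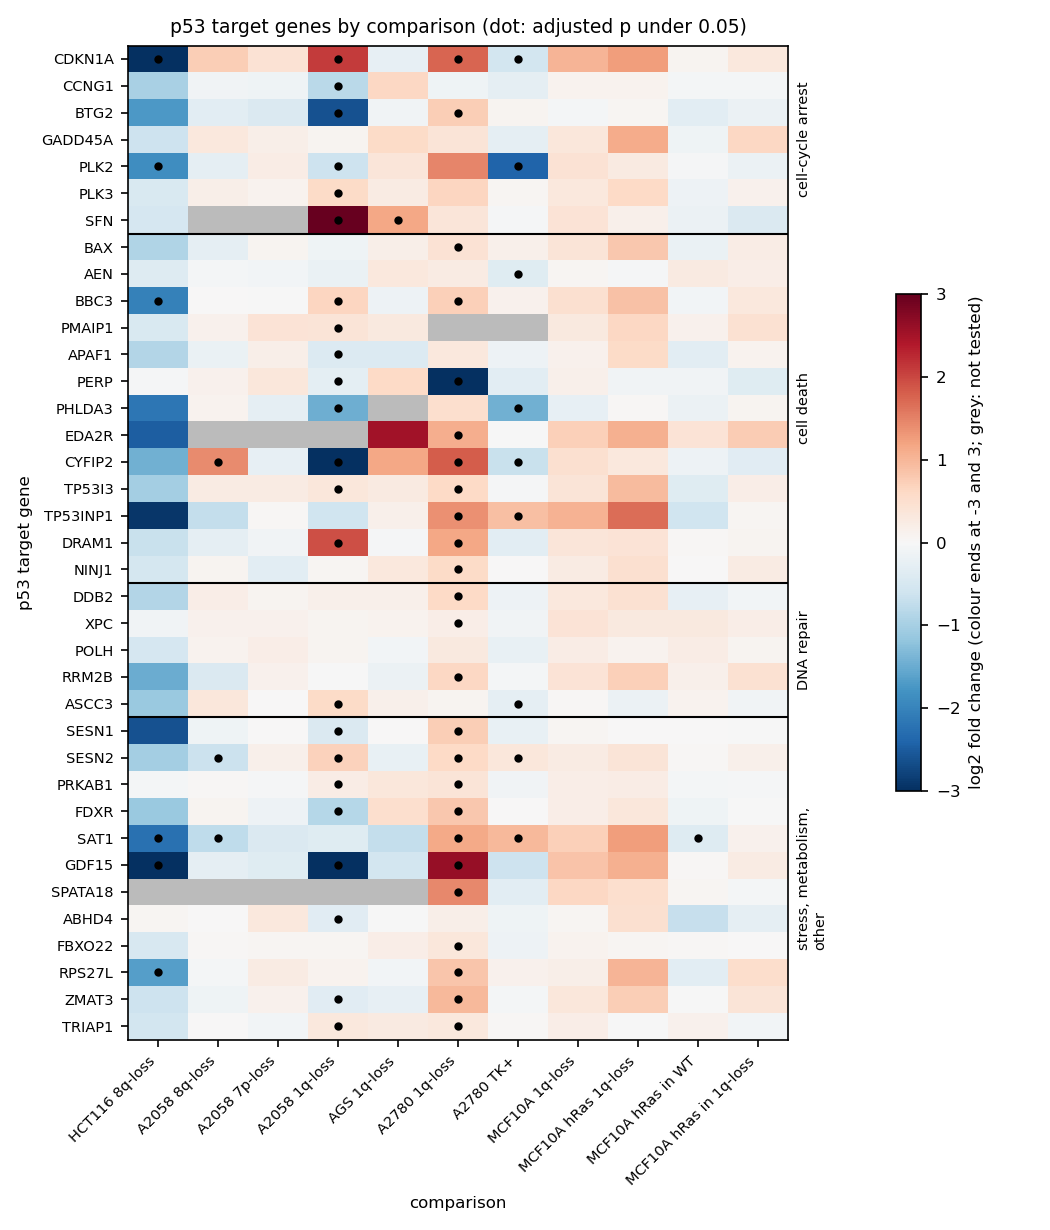
Log2 fold change of each p53 target (vertical axis, grouped by role) in each comparison (horizontal axis), coloured from lower to higher in the loss group, with a dot where edgeR called the gene. The HCT116 8q-loss column is mostly below 0 with 6 called genes, and the A2780 1q-loss column mostly above 0 with 25.

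The called p53 targets were lower in the HCT116 8q-loss clones and, but for 1, higher in the A2780 1q-loss clones. HCT116 had 6 called members of 36 tested, and the 6 fell, where 0.14% of all 15659 tested genes were called and 0.115% were called lower. A2780 had 25 called of 36 tested, of which 24 rose and 1 fell, where 11.8% of 15044 tested genes were called and 5.95% were called higher. At an unadjusted p under 0.05, HCT116 had 19 members, beside 5.45% of tested genes. The median log2 fold change of the tested members was -0.94 in HCT116 and 0.59 in A2780, beside 0.02 and 0.01 over all tested genes.

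Among the 7 arrest genes of HCT116, CDKN1A and PLK2 fell. CDKN1A (chr6:36676460-36687339 in GRCh38) measured 92.7 and 83.9 CPM in the libraries of 8q-loss clone 1 and 39.1 and 36.2 in those of clone 2. The WT libraries held 708 and 501 CPM. Every loss library thus lay below both WT libraries, and the gene fell 9.59-fold (log2 fold change -3.26 ± 0.39 SE, adjusted p = 0.00605, edgeR quasi-likelihood test). PLK2, a polo-like kinase that p53 induces, held 21.4, 28.1, 22.0 and 22.5 CPM against 63.5 and 107 in WT and fell 3.63-fold (adjusted p = 0.0312, edgeR). The clones shared 1 narrow level of PLK2, while the WT libraries differed from each other by more than the loss libraries did. BTG2, an anti-proliferative gene, was at 8.67, 6.74, 12 and 11.5 CPM against 33.6 and 30.3, with no overlap, but missed the threshold (log2 fold change -1.71, adjusted p = 0.0869, edgeR). The other 4 arrest genes, CCNG1, GADD45A, PLK3 and SFN, had log2 fold changes between -0.98 and -0.46 and were not called.

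Of the 13 death genes all had fold changes below 0 and 1 was called. BBC3, which encodes the death-promoting protein PUMA, measured 10.1, 7.09, 9.64 and 9.26 CPM against 47.3 and 26.1 in WT, a 4.06-fold fall (adjusted p = 0.0428, edgeR). The loss libraries of BBC3 sat close together and under both WT libraries. PHLDA3, an inhibitor of AKT signalling, was just outside the threshold at 53.5, 30.9, 20.8 and 24.8 CPM against 184 and 108 (log2 fold change -2.17 ± 0.37 SE, adjusted p = 0.0504, edgeR). BAX, whose protein opens the outer mitochondrial membrane, was at 80.8, 53.8, 47.8 and 54.8 CPM against 127 and 94. The groups did not overlap for BAX, and the change was not called (log2 fold change -0.90, adjusted p = 0.583, edgeR). EDA2R, a receptor of the tumour necrosis factor family, and CYFIP2, a member of the actin-regulating WAVE complex, had log2 fold changes of -2.47 and -1.44 and were not called. TP53INP1, a stress-induced partner of p53 that lies on 8q, was at 0.387, 0.118, 1.41 and 1.15 CPM against 5.18 and 6.51 (log2 fold change -2.91 ± 0.72 SE, adjusted p = 0.285, edgeR). PERP, a desmosome gene and p53 target, lay at 59.0 to 88.3 CPM in the clones, a span that takes in the WT values of 62.6 and 84.9.

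Of the 5 repair genes edgeR called 0, 2 had an unadjusted p under 0.05, DESeq2 called 1 (RRM2B), and all 5 had fold changes below 0. RRM2B, the p53-induced subunit of ribonucleotide reductase on 8q, was at 5.38, 9.58, 10.1 and 9.44 CPM against 20.6 and 27.8 (log2 fold change -1.49, adjusted p = 0.218, edgeR). DDB2, a sensor of ultraviolet damage, was at 69.5 and 75.3 CPM in clone 1 and 27.2 and 28.4 in clone 2, against 105 and 80.5 in WT. All DDB2 values of the clones lay under the WT values, with clone 2 well under clone 1.

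Of the metabolic, secreted and other genes 3 of 11 tested were called. GDF15, a stress-induced secreted factor (chr19:18374731-18389176 in GRCh38), measured 16.8, 8.83, 11 and 12.9 CPM against 144 and 100 in WT and fell 9.86-fold (log2 fold change -3.30 ± 0.31 SE, adjusted p = 0.00297, edgeR). Both clones were close to each other and about an order of magnitude under WT. SAT1, the rate-limiting enzyme of polyamine breakdown, was at 21.8, 25.7, 13.9 and 12.1 CPM against 77.2 and 95.2 and fell 4.69-fold (adjusted p = 0.0307, edgeR). RPS27L, a ribosomal-protein-like gene induced by p53, was at 33.9, 33.5, 32 and 21.7 CPM against 88.0 and 102 and fell 3.13-fold (adjusted p = 0.0448, edgeR). SESN1, a sestrin that restrains mTORC1, was at 0.929, 0, 1.81 and 2.31 CPM against 7.54 and 7.91, with no overlap and no call (adjusted p = 0.625, edgeR). ABHD4 was the 1 tested member above 0, at a log2 fold change of 0.07, and SPATA18 had no counts in any HCT116 library.

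**Figure D2:**
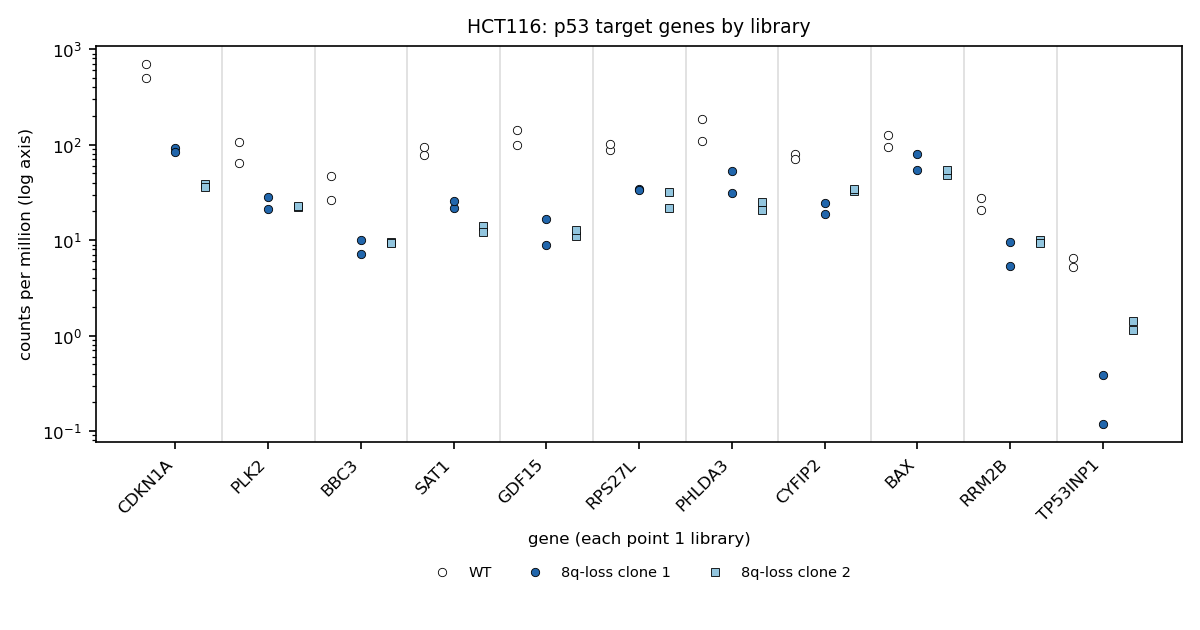
CPM of 11 p53 targets in each HCT116 library on a log axis, with WT and the 2 8q-loss clones in separate colours. CDKN1A, GDF15, SAT1, BBC3, PLK2 and RPS27L lie lower in all 4 loss libraries than in both WT libraries.

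Taken clone by clone, 11 members were called lower in 8q-loss clone 1, where 0.326% of tested genes were called lower, and 13 in clone 2, where 0.952% were. Members lower than WT in both clones numbered 32 of 36, beside 27.8% of all tested genes. CDKN1A, BTG2, PLK2, BBC3, PHLDA3, EDA2R, SAT1, GDF15 and RPS27L were called in both clones, each of which shares the 2 WT libraries with the other. The clones differed from each other at 5 members (4.66% of all tested genes did), namely CDKN1A, SFN, APAF1, TP53I3 and DDB2. SFN, the cell-cycle brake 14-3-3 sigma, measured 425 and 281 CPM in clone 1 and 105 and 130 in clone 2, against 405 and 264 in WT. TP53I3, an oxidoreductase gene, held 22.5 and 20.1 CPM in clone 1 and 6.08 and 4.65 in clone 2. Epithelial genes differed alongside: KRT17 was at 18.4 and 12.3 CPM in clone 1, 0.691 and 0.699 in clone 2 and 4.61 and 1.52 in WT, and CDH1 at 12 and 8.87, 2.01 and 1.57, and 5.5 and 2.71. KRT5, KRT14 and TP63 stayed at or below 0.929 CPM in every HCT116 library. The part of these differences in the members' values was not tested.

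MDM2, also a p53 target, was at 8.09, 15.1, 25.2 and 25.6 CPM in the HCT116 clones against 17 and 41.3 in WT, with overlap. MDM4 was at 7.12, 9.93, 27.0 and 22.2 CPM against 7.32 and 11.8, so clone 2 lay above WT and clone 1 did not. Of 17 tested regulators of p53, 0 were called by edgeR or DESeq2 and 0 had an unadjusted p under 0.05. Of 15 cell-cycle genes that p53 represses through the DREAM complex, 0 were called by edgeR or DESeq2, 2 had an unadjusted p under 0.05, and 13 had fold changes above 0 (median 0.26). Of all tested genes edgeR called 0.14%, and 5.45% had an unadjusted p under 0.05, so counts of 0 say little about either list.

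The count of 6 in HCT116 changed when single libraries were left out. It was 0 without WT replicate 1, 0 without clone 1 replicate 2 and 2 without WT replicate 2, while DESeq2 called 12 members and none of these settings called a member higher. With a whole clone left out the count was 7 or 12, depending on the clone. With each clone's libraries added up as 1, CDKN1A and GDF15 were called, and the calls of SAT1 (adjusted p = 0.055), PLK2 (0.133), BBC3 (0.155) and RPS27L (0.206) were lost, all by edgeR. Data were also simulated with the library sizes, means and dispersions of this comparison, but with libraries drawn independently and no clone effect. There, 64% of genes with a true log2 change of 2 were recovered and 5% of those with a change of 1, and 3 unchanged genes were called. The changed genes were picked above a minimum mean count.

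A2058 lost the same arm, and its p53 targets gave few calls. Of 34 tested members 1 rose and 2 fell, beside 2.03% of all 15141 tested genes called, and their median log2 fold change was 0.01. CYFIP2 rose from 6.75, 5.37, 5.40 and 6.77 CPM in WT to 13.6, 14.7, 17.9 and 18.8 in the 8q-loss libraries (log2 fold change 1.42 ± 0.15 SE, adjusted p = 0.00191, edgeR). SAT1 fell, at 38.3, 30.4, 32.5 and 28.7 CPM against 56.5, 64.0, 53.8 and 44.3 (adjusted p = 0.0168, edgeR). SESN2, a stress sensor of the sestrin family, fell from 14.7, 13.2, 16.2 and 11.8 CPM to 8.97, 8.36, 9.25 and 8.89 (adjusted p = 0.0305, edgeR). None of these 3 genes overlapped between the groups. The SESN2 call was lost in 13 of 19 alternatives, among them summed clones (adjusted p = 0.112, edgeR) and either clone left out, the SAT1 call in 7 and the CYFIP2 call in 2.

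CDKN1A in the A2058 8q-loss libraries was at 21.6, 42.4, 20.7 and 33.1 CPM and overlapped the WT values of 10.7, 16.6, 14.7 and 28.1 (log2 fold change 0.74, adjusted p = 0.33, edgeR). GDF15 was at 108, 157, 108 and 169 CPM against 169, 162, 149 and 176, which also overlapped. The 2 members on 8q were lower without a call. RRM2B was at 29.7, 28.9, 22.6 and 28 CPM against 37.4, 38.2, 31.1 and 40.3 (log2 fold change -0.43, adjusted p = 0.112, edgeR), and TP53INP1 had a log2 fold change of -0.71 (adjusted p = 0.233, edgeR). BAX, at a log2 fold change of -0.28, was not called, nor were the regulators MDM2 (0.17) and MDM4 (-0.14). The count of 3 for A2058 was 1 without WT replicate 1, 2 or 3, without clone 1 replicate 2, or without clone 2.

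The 8q-loss effect of HCT116 was tested against that of A2058 in 1 model. It was lower in HCT116 for 6 of 36 members, where 0.514% of 18105 tested genes differed in either direction and 0.298% were lower. The joint filter kept more genes than that of A2058 (15141) or HCT116 (15659) alone. Genes low in 1 line thus widen the set behind these shares. SFN and EDA2R were tested here but not in A2058 alone, while the 6 were tested in each line alone as well. The differences of log2 fold changes were -3.94 ± 0.54 SE for CDKN1A (adjusted p = 0.00244), -2.95 ± 0.33 for GDF15 (0.00053) and -2.78 ± 0.32 for CYFIP2 (0.000583), all by edgeR. PHLDA3 (-2.19), BBC3 (-1.96) and RPS27L (-1.54) were the other called genes. The count ran from 4 to 13 when 1 library or clone was left out, with 13 without HCT116 clone 1, 10 without HCT116 clone 2 and 4 without A2058 clone 1, A2058 WT replicate 1, A2058 WT replicate 2 or HCT116 clone 2 replicate 2. It was 3 when each clone's libraries were added up as 1. The calls of CDKN1A, GDF15 and CYFIP2 held in all 25 alternatives, while those of BBC3, PHLDA3 and RPS27L were lost in 10, 8 and 3. The lines differ in tissue of origin and in much besides.

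In A2780 24 of the 25 called members rose in the 1q-loss clones. Of its 7 arrest genes 2 rose. CDKN1A (chr6:36644305-36655116 in GRCh37) ran from 43 to 167 CPM with a median of 73.4 in the 6 loss libraries, against 24.1 and 20.2 in TK+ and 32.4 and 32.8 in WT. The lowest loss library, of clone 5, was above the highest control, and clone 2 was highest at 167 and 148 CPM. The gene rose 3.38-fold (log2 fold change 1.76 ± 0.39 SE, adjusted p = 0.0152, edgeR). That call was lost against TK+ alone (adjusted p = 0.0743, edgeR), against WT alone (0.127) and without TK+ replicate 2 (0.0516). BTG2, on the lost arm, rose 1.66-fold, from 16.4, 16.7, 16.3 and 15 CPM to between 19.9 and 31.3 with a median of 28.6 (adjusted p = 0.00626, edgeR), and its call was lost against TK+ alone (0.0813). PLK2 was not called: clone 5 held 14.5 and 13.5 CPM where the other loss libraries held 0.889 to 1.36, TK+ 0.749 and 0.504, and WT 3.16 and 3.5.

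Among the death genes 8 of 12 tested rose and 1 fell. CYFIP2 ran from 45.1 to 92 CPM (median 60.7) against 13.1 and 15.4 in TK+ and 21.9 and 23.8 in WT, a 3.53-fold rise (adjusted p = 0.00109, edgeR). TP53INP1 rose 2.59-fold, to between 36.9 and 44.0 CPM (median 40.1) from 20.8 and 19.5 in TK+ and 10.6 and 11.2 in WT (adjusted p = 0.00129, edgeR). The controls of TP53INP1 form a pair of levels, and both lie under every loss library. DRAM1, a lysosomal regulator of autophagy, rose 2.25-fold, to between 20.9 and 27.4 CPM (median 24.2) from 10.2, 9.17, 12.9 and 11.1 (adjusted p = 0.000183, edgeR). EDA2R rose 2.14-fold, to between 15.9 and 22.9 CPM (median 17.7) from 7.23 to 10.3 (adjusted p = 0.00118, edgeR). BAX rose by less, 1.34-fold, to between 104 and 144 CPM (median 124) from 96.1 and 96.5 in TK+ and 88.1 and 86.2 in WT (adjusted p = 0.00708, edgeR), a call lost against TK+ alone (0.115). BBC3, NINJ1 and TP53I3 were the other death genes that rose.

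PERP fell in A2780, against the direction of the other called members. It held 5.95 and 4.86 CPM in TK+ and 6.96 and 6.60 in WT, and between 0.206 and 0.933 with a median of 0.543 in the loss libraries. The fall was 11.5-fold (log2 fold change -3.52 ± 0.33 SE, adjusted p = 0.000128, edgeR) and appeared in each of the 3 clones. PHLDA3, on the lost arm, was at 48.9 to 72.2 CPM (median 61.8), within reach of the WT values of 65.5 and 63.0 and above the TK+ values of 22.3 and 25.1. It was not called (log2 fold change 0.50, adjusted p = 0.306, edgeR). PMAIP1, the death gene NOXA, stayed at or below 0.254 CPM in every A2780 library and was not tested.

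The repair genes DDB2, RRM2B and XPC rose, 3 of 5. DDB2, whose promoter match is printed above, rose 1.51-fold, to between 37.4 and 43.8 CPM (median 40.02) from 23.1 and 26.9 in TK+ and 29 and 27.0 in WT (adjusted p = 0.000844, edgeR). RRM2B rose 1.53-fold, to between 58.9 and 82.0 CPM (median 70.0) from 47.0, 45.3, 48 and 47.6 (adjusted p = 0.00183, edgeR). XPC, a nucleotide-excision repair sensor, rose 1.14-fold (adjusted p = 0.0385, edgeR), and 30.4% of its exonic bases overlap genes on the opposite strand, whose reads cannot be told apart where counting ignores strand.

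Of the 12 remaining members 11 rose in A2780. GDF15 ran from 9.51 to 39.0 CPM (median 14.9) against 2.69 and 2.52 in TK+ and 3.98 and 4.04 in WT, a 6.11-fold rise (log2 fold change 2.61 ± 0.42 SE, adjusted p = 0.00294, edgeR). SPATA18, which acts in mitochondrial quality control, rose 2.72-fold, to between 19.2 and 29.6 CPM (median 20.8) from 7.89, 7.06, 8.36 and 10.4 (adjusted p = 0.000479, edgeR). ZMAT3, an RNA-binding splicing regulator, rose 1.97-fold, to between 37.7 and 57.8 CPM (median 45.9) from 22.3 to 25.4 (adjusted p = 0.000975, edgeR). In none of the 3 did a loss library reach down to a control. RPS27L rose 1.79-fold, to between 43.3 and 53.2 CPM (median 48.4) from 24.6 to 29.8 (adjusted p = 0.000126, edgeR). FDXR, a mitochondrial electron carrier enzyme, rose 1.76-fold, to between 74.2 and 97.7 CPM (median 95.4) from 48.2 to 56.6 (adjusted p = 0.000215, edgeR). SAT1, at 3.42 to 8.45 CPM (median 5.43) against 3.35 and 3.62 in TK+ and 2.08 and 1.48 in WT, rose as well, with an overlap between clone 5 and TK+ (adjusted p = 0.0379, edgeR). The SAT1 call was lost in 11 of 22 alternatives, among them TK+ as the only control (0.268), summed clones (0.112) and clone 2 left out (0.102), all by edgeR. SESN1 and SESN2 rose 1.68-fold and 1.5-fold, and ABHD4 was not called.

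**Figure D3:**
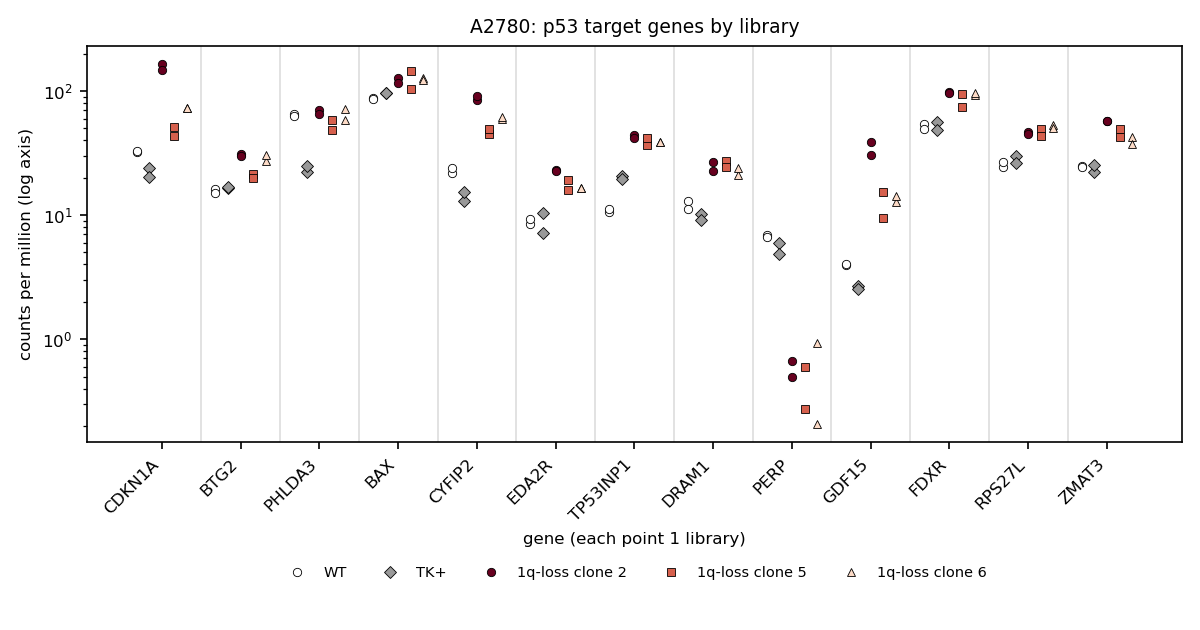
CPM of 13 p53 targets in each A2780 library on a log axis, with WT, TK+ and 1q-loss clones 2, 5 and 6 in separate colours. PERP is lower in all 6 loss libraries than in all 4 controls, and CDKN1A, GDF15, CYFIP2 and RPS27L are higher.

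Of the 36 members tested in A2780, 23 had every loss library above all 4 controls, beside 6.43% of all tested genes. By clone, 27 members were called higher in clone 2 (12.1% of tested genes were), 20 in clone 5 (7.13%) and 22 in clone 6 (5.27%), and PERP was the 1 member called lower in each (11.4%, 7.17% and 5.03% of tested genes were). The clones differed at 8 members, where 12.2% of tested genes differed. Those were CDKN1A, BTG2, PLK2, APAF1, TP53I3, GDF15, ABHD4 and ZMAT3. CDKN1A was 2.52 log2 units above the controls in clone 2, 0.80 in clone 5 and 1.42 in clone 6, and GDF15 was 3.39, 1.92 and 2.03 above. In clone 6 the median of 6q, which holds SESN1, PERP and ASCC3, was 0.331 log2 units above other arms.

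MDM2 rose in A2780 (log2 fold change 0.41, adjusted p = 0.00376, edgeR), and MDM4 on 1q fell (-0.55, adjusted p = 0.0215). Of 17 tested regulators 3 rose (MDM2, CDKN2A and TP73) and 2 fell (MDM4 and COP1, a ubiquitin ligase of p53 that also lies on 1q). Of the 15 cell-cycle genes repressed through DREAM, 2 fell, which is 13.3% beside the 11.8% of all tested genes called, and 13 had fold changes below 0 (median -0.11).

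The TK+ control itself moved some members. Against WT, 3 of 36 rose and 6 fell, where 11.2% of 14888 tested genes were called. PHLDA3 fell 2.71-fold in TK+ (adjusted p = 5.74e-07, edgeR), PLK2 fell 5.25-fold (adjusted p = 0.000412, edgeR) and CDKN1A fell 1.47-fold (adjusted p = 0.00538, edgeR). CYFIP2, AEN, the apoptosis-enhancing nuclease, and ASCC3, a DNA helicase, also fell. TP53INP1 rose 1.86-fold, and SAT1 and SESN2 rose. The calls of AEN, ASCC3 and SESN2 were lost without either WT library and that of SAT1 without WT replicate 2. DESeq2 called 6 members here, without ASCC3, SESN2 and SAT1. Since these libraries also serve as controls above, the count for 1q-loss was taken with each control alone, and was 17 against TK+ and 19 against WT. The share of all tested genes called in those fits is not given here, and with both controls it was 11.8%. The counts with 1 control thus do not by themselves set the members apart from other genes. The count for TK+ was 5 without WT replicate 2.

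In MCF10A the 1q-loss clones were unlike each other in their p53 targets, and no member was called over the clones. Of 37 members edgeR called 0, where 2.04% of 15666 tested genes were called, 10 had an unadjusted p under 0.05 (11.8% of tested genes did), all above 0, and DESeq2 called 1. The median log2 fold change was 0.31 (0.01 over all tested genes), and 35 members were above 0, beside 50.9% of tested genes.

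CDKN1A was at 236 and 178 CPM in clone 1, 347 and 398 in clone 2, 327 and 289 in clone 3 and 557 and 511 in clone 4, against 195 and 156 in WT. Clone 1 overlapped WT and the other clones lay above it (log2 fold change 1.02 ± 0.35 SE, adjusted p = 0.222, edgeR). TP53INP1 ran from 9.16 to 33.5 CPM (median 14.6) against 8.60 and 9.35, with its highest values, 31.8 and 33.5, in clone 4. SAT1 ran from 108 to 201 CPM (median 156) against 91.1 and 95.7, with no overlap (adjusted p = 0.122, edgeR). GDF15 ran from 6.09 to 40.3 CPM (median 14.9) against 11.3 and 8.36, and BAX from 62.6 to 115 (median 75.2) against 59.3 and 63.7. Clone 4 was the highest clone for both. The 2 members on 1q had the 2 fold changes below 0, at -0.06 for BTG2 and -0.24 for PHLDA3.

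Members above WT numbered 19 of 37 in clone 1 (49.4% of all tested genes were), 33 in clone 2 (48.1%), 33 in clone 3 (49.1%) and 37 in clone 4 (50.2%). Against WT, 1 member was called higher in clone 1 (0.9% of tested genes were), 7 in clone 2 (2.49%), 5 in clone 3 (0.823%) and 21 in clone 4 (7.52%). The call in clone 1 was SFN. CDKN1A, CYFIP2, TP53INP1, SAT1 and SPATA18 were called higher in clones 2, 3 and 4, which share the WT libraries. In clone 4 the log2 fold changes reached 1.87 for TP53INP1, 1.75 for GDF15, 1.61 for CDKN1A, 1.06 for the damage-response gene GADD45A and 0.83 for BAX. The median of 19q, which holds BAX and BBC3, was 0.437 log2 units above other arms in that clone. The clones differed among themselves at 18 members, beside 10% of tested genes. The count over the clones was 6 without clone 1, where 319 of 15527 genes were called, and 0 without clone 2, 3 or 4, of which clone 4 is the 1 made by ReDACT-CO. MDM4 fell in the 1q-loss clones (log2 fold change -0.71, adjusted p = 0.0123, edgeR), while MDM2 (0.13) was not called.

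**Figure D4:**
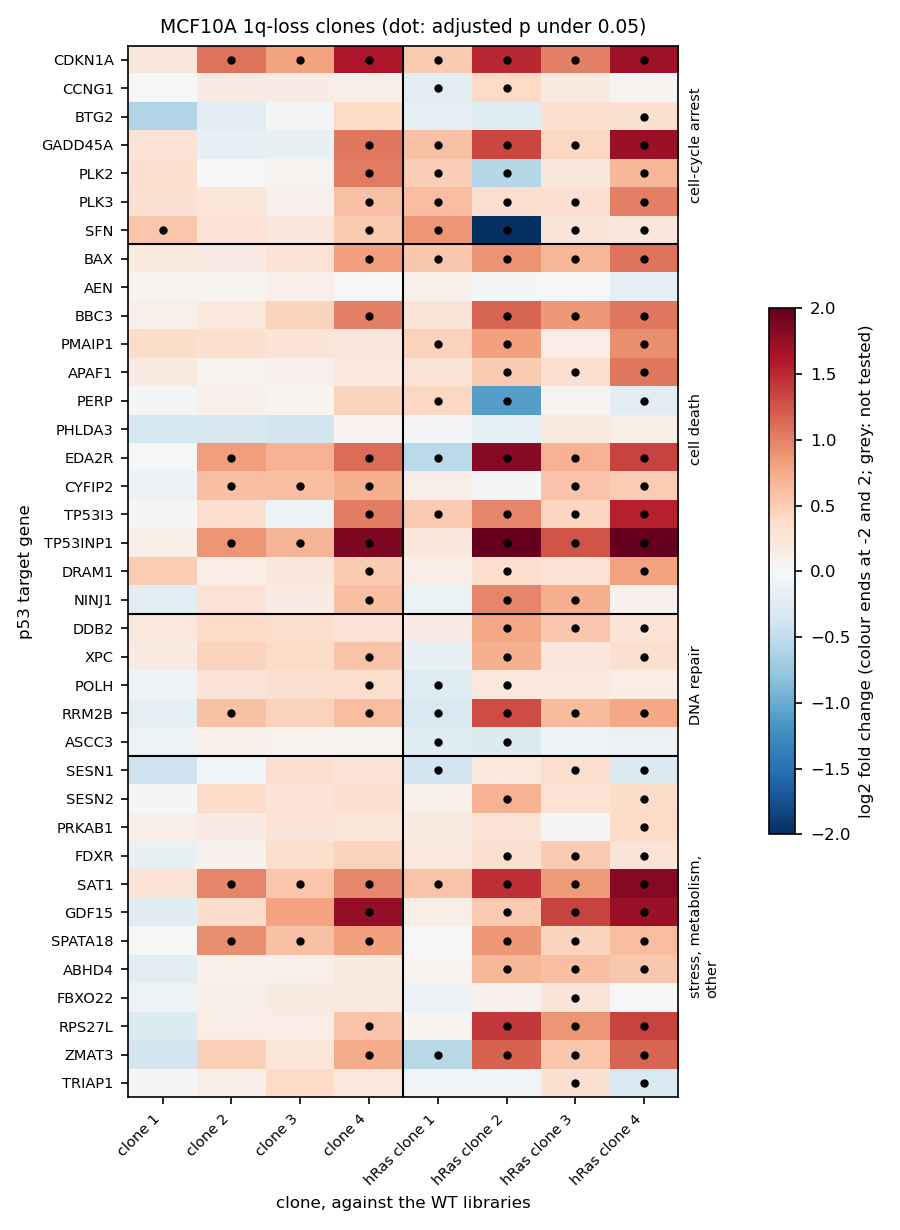
Log2 fold change of each p53 target in each MCF10A 1q-loss clone against WT of the same hRas status (columns: 4 clones without and 4 with hRas), with a dot where edgeR called the gene in that clone. Clone 4 without hRas has 21 called members and clone 1 has 1, and clones 2, 3 and 4 with hRas have 24 or more higher.

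With hRas, edgeR again called 0 of 37 members over the 1q-loss clones, where 0.214% of 15851 tested genes were called, 14 had an unadjusted p under 0.05 (14.3% of tested genes did), all above 0, and DESeq2 called 4. The median log2 fold change was 0.47, and 33 members were above 0, beside 53.3% of tested genes. CDKN1A was at 263 and 270 CPM in clone 1, 539 and 520 in clone 2, 373 and 374 in clone 3 and 578 and 611 in clone 4, against 186 and 185 in hRas WT. No loss library overlapped WT (log2 fold change 1.25 ± 0.34 SE, adjusted p = 0.188, edgeR). BAX also stayed clear of WT, at 74.9 to 114 CPM (median 91.9) against 58.4 and 48.2 (log2 fold change 0.82 ± 0.18 SE, adjusted p = 0.101, edgeR). SAT1 ran from 98.4 to 258 CPM (median 161) against 72.8 and 69.1, GADD45A from 38.1 to 98.6 (median 61.9) against 29.3 and 31.3, and TP53INP1 from 6.56 to 31.8 (median 19) against 6.13 and 5.79. In all, 12 members had every loss library above both hRas WT libraries, beside 8.07% of tested genes.

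Of the hRas clones, clone 1 had 10 members called higher and 7 lower (9.88% and 8.93% of tested genes), clone 2 had 25 and 4 (24.9% and 26.5%), clone 3 had 24 and 0 (8.61% and 7.17%) and clone 4 had 27 and 3 (26.7% and 24.7%). The clones differed among themselves at 34 members, beside 64.4% of tested genes. EDA2R was at 4.87 and 6.50 CPM in clone 1 and 30.5 and 28 in clone 2, with hRas WT at 8.95 and 7.59 between them. SFN was at 112 and 112 CPM in hRas clone 2 and 894 and 916 in clone 1, against 488 and 490 in WT. PERP was at 275 and 309 CPM in clone 2 against 615 and 632. In hRas clone 2 the basal epithelial regulator TP63 was at 0.513 and 0.634 CPM against 56.8 and 60.4 in hRas WT, and the adherens-junction gene CDH1 at 3.27 and 2.62 against 214 and 219. Of the fibroblast genes, DCN was at 261 and 279 CPM there against 18.2 and 18.9, COL1A1 at 6.19 and 6.14 against 7.38 and 7.73, and LUM at 0 in all 4 libraries. The part of these differences in the members' values was not tested, and the count over clones stayed at 0 without clone 2 (median log2 fold change 0.41).

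In MCF10A WT cells 1 of 37 members fell with hRas, SAT1 (log2 fold change -0.39, adjusted p = 0.0267, edgeR), where 1.62% of tested genes were called, and no member was called when any 1 of the 4 libraries was left out. Within 1q-loss clones edgeR called 0 members for hRas, where 1.2% of tested genes were called, with 6 at an unadjusted p under 0.05 (18.1% of tested genes) and 1 by DESeq2. Without hRas clone 1 that count of 0 became 5. Clones of the same number share a ReDACT version with and without hRas. With that number as a block, an alternative chosen after seeing the data, 8 members were called, all higher, where 2160 of 14332 genes were called. Among them were CDKN1A (log2 fold change 0.33, adjusted p = 0.0051, edgeR), GADD45A (0.62), EDA2R (0.61) and BAX (0.23). The interaction of 1q-loss and hRas was called for 0 members by edgeR and 0 by DESeq2, and for 0% of all 16492 tested genes, with 0 members at an unadjusted p under 0.05 (2.22% of tested genes). Its log2 value was 0.23 ± 0.49 SE for CDKN1A and 0.42 ± 0.28 SE for BAX.

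In AGS, SFN was the 1 member of 35 tested that was called, where 7.55% of 14988 tested genes were called. It rose 2.22-fold, to 261, 313, 346, 303 and 250 CPM in clones 1, 4, 6, 7 and 11 from 144 and 111 in TK+ and 145 in WT (adjusted p = 0.00674, edgeR). Every loss clone was above every control, and the call was lost against WT alone (adjusted p = 0.321, edgeR). CDKN1A was at 597, 544, 741, 743 and 721 CPM against 695 and 716 in TK+ and 982 in WT, which overlap (log2 fold change -0.25, adjusted p = 0.377, edgeR). GDF15 was at 633 and 620 CPM in clones 1 and 4 and 1358, 1425 and 1598 in clones 6, 7 and 11, against 1817, 1429 and 1699 in the controls. Clones 1 and 4 were low and the other clones near the controls (log2 fold change over all clones -0.54, adjusted p = 0.324, edgeR).

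EDA2R in AGS was at 12.7, 5.59, 5.92, 6.53 and 5.45 CPM against 0 and 1.36 in TK+ and 2.36 in WT, with no overlap and no call (adjusted p = 0.0742, edgeR), and it passed the filter on low counts only through the loss libraries. CYFIP2 was at 77.1 and 76.0 CPM in clones 1 and 4 and at 29.9, 25 and 34.1 in the other clones, against 15.2, 20.01 and 30.1. SAT1 and CCNG1 had log2 fold changes of -0.72 and 0.61 without a call. BTG2, on the lost arm, had a log2 fold change of -0.11 and BAX of 0.18, and PHLDA3 stayed below 0.5 CPM. MDM4 fell (-0.74, adjusted p = 0.0194, edgeR), and MDM2 was just outside the threshold (0.47, adjusted p = 0.0504, edgeR). At an unadjusted p under 0.05 there were 13 members (25.8% of tested genes), 11 of them above 0, and DESeq2 called 5.

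Clones 1 and 4, which stood apart in GDF15 and CYFIP2, also did so in lineage and cycle genes of AGS. The basal keratin KRT5 was at 15.7 and 30.3 CPM in them, against at most 0.725 in the other clones and 0.194 in the controls. The intestinal cadherin CDH17 was at 2.54 and 0.913 CPM, against 16.9 to 39.4 in the other clones and 67.9 to 113 in the controls, and the gastric peptide TFF1 at 0 in both, against 1.78 to 3.96 and 18.1 to 28.5. The other genes of those lists did not all go that way. LGALS4 was at 1.03 and 0.798 CPM and CDX2 at 23.2 and 13.2, under the other libraries (1.8 to 14.1 and 29.7 to 65.6). EPCAM was also lowest in the pair, at 606 and 601 CPM against 707 to 868. VIL1, at 417 and 217 CPM against 198 to 340, was highest in clone 1, and MUC5AC, at 1.93 and 0.513 against 0.0645 to 0.462, was highest in the pair. The mitotic cyclin CCNB1 was at 170 and 171 CPM against 65.3 to 95.8 in the other libraries, and the checkpoint kinase CHEK1 at 91.2 and 101 against 21.8 to 32.9. Clones 6, 7 and 11 also lay outside the controls in CDH17, TFF1 and LGALS4 (1.8 to 4.32 CPM in these clones, 7.72 to 14.1 in the controls). The keratin KRT7 was at 21.9, 56, 33.7, 27.8 and 5.59 CPM in clones 1, 4, 6, 7 and 11, against 2.43 to 5.42 in the controls. KRT14 was at 2.46 to 13.5 CPM in all 5 clones against 1.37 to 1.84 in the controls, KRT17 and CDH1 did not set the pair apart, and TP63 was at 0.121 CPM in clone 1 and 0 elsewhere. The part of these differences in the members' values was not tested. With both clones left out, a setting chosen after seeing the data, SFN was again called (log2 fold change 1.19, adjusted p = 0.00849, edgeR), and with APAF1 and FDXR the count was 3, where 1168 of 14582 genes were called. GDF15 then had a log2 fold change of -0.16 and CYFIP2 of 0.46, neither called. Without clone 11, the 1 made by ReDACT-CO, the count was 2.

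A2058 1q-loss cells had calls in both directions, 11 members up and 12 down of 35 tested, beside 49.6% of 15387 tested genes called, 25.3% up and 24.3% down. GDF15 fell 9.93-fold, to 16.9, 25.6, 10.7 and 13.1 CPM from 169, 162, 149 and 176 (log2 fold change -3.31 ± 0.23 SE, adjusted p = 1.31e-06, edgeR). CYFIP2 fell 14.3-fold, to 0.716, 0.484, 0.326 and 0.189 CPM from 6.75, 5.37, 5.40 and 6.77 (adjusted p = 4.46e-06, edgeR). BTG2 and PHLDA3, both on 1q, fell 6.10-fold and 2.77-fold. FDXR (-0.86), CCNG1 (-0.82), a cyclin induced by p53, and PLK2 (-0.62) fell by less on the log2 scale. CDKN1A rose 4.29-fold, to 46.1, 81.5, 63.1 and 111 CPM from 10.7, 16.6, 14.7 and 28.1 (adjusted p = 0.000298, edgeR). DRAM1 rose 3.83-fold, to 61.8, 70.0, 84.3 and 88.7 CPM from 15.9, 18.6, 22.8 and 22.2 (adjusted p = 2.22e-06, edgeR). So CDKN1A and GDF15, both lower in HCT116 8q-loss and both higher in A2780 1q-loss, moved in opposite directions here, and BAX was not called (-0.12). SESN2 and BBC3 had log2 fold changes of 0.68 and 0.65 and were called higher, but both overlapped WT, and their calls were lost in 4 and 11 of 19 alternatives. SFN, counted among the 11, held 0.525, 1.21, 3.21 and 2.53 CPM against at most 0.185 in WT. It passed the filter on low counts only through the loss libraries, and CYFIP2 and BTG2 only through WT, so these calls are no more than a description.

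MDM2 fell in the A2058 1q-loss libraries, to 52.4, 52.2, 58.3 and 50 CPM from 73.2, 73.4, 64.8 and 66.5 (log2 fold change -0.39, adjusted p = 0.0013, edgeR), and MDM4 on 1q fell as well (-0.65, adjusted p = 4.48e-05, edgeR).

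These clones also stood apart in lineage genes. SOX10, a melanocyte regulator, was at 80.8, 82.1, 28.2 and 24.9 CPM in the A2058 1q-loss libraries and 470 to 652 in WT, and MITF at 8.31 to 23.9 against 138 to 210. The other melanocyte genes are given over all A2058 libraries only. PMEL ran from 9.82 to 2090 CPM, MLANA from 0.831 to 23.7, TYR from 0 to 1060 and DCT from 5.66 to 1780. Of the basal epithelial list, KRT17 was at 50.7 to 255 CPM against 0.406 to 2.33 and TP63 at 15.7 and 10.1 in clone 2 against 0. KRT5 was at or below 0.34 CPM, KRT14 at or below 1.37 and CDH1 at or below 0.355 in every A2058 library. Of the genes of other cell types, the endothelial PECAM1 was at 7.11 to 17.8 CPM against 0.169 to 0.355 in WT and the collagen gene COL1A1 at 108 to 246 against 15.1 to 22.2. The leukocyte genes PTPRC, CD3E and CD14 stayed at or below 0.932 CPM in A2058, VWF at or below 1.34 and DCN at or below 2.79, and LUM at 20.8 to 37.2 reached into the WT range of 17 to 26.9. The part of this difference in the members' values was not tested, and each clone taken alone gave 19 called members when the other was left out. With WT replicates 3 and 4 as the only controls the count was 13. The share of all tested genes called in those fits is not given here, and with all libraries it was 49.6%. These counts are thus not a result about the members. Fewer cells of a kind and less RNA per cell cannot be told apart in such bulk libraries.

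Loss of 7p in A2058 gave 0 called members of 34 by edgeR, where 0.908% of 15305 tested genes were called, with 3 at an unadjusted p under 0.05 (13% of tested genes) and 1 by DESeq2. CDKN1A ran from 14.7 to 31.1 CPM (median 23.5), across the WT range of 10.7 to 28.1. GDF15 ran from 73.2 to 251 CPM (median 118) against 149 to 176. SAT1, BTG2 and PMAIP1 had log2 fold changes of -0.44, -0.43 and 0.40 and BAX of 0.08, and the regulators MDM2 and MDM4 had 0.14 and -0.07, none of them called. The clones were unlike each other at 15 members (34.6% of tested genes), and 12 members were called higher and 7 lower in clone 1 alone (18.3% and 19.6% of tested genes). Without clone 1 the count was 2.

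**Figure D5:**
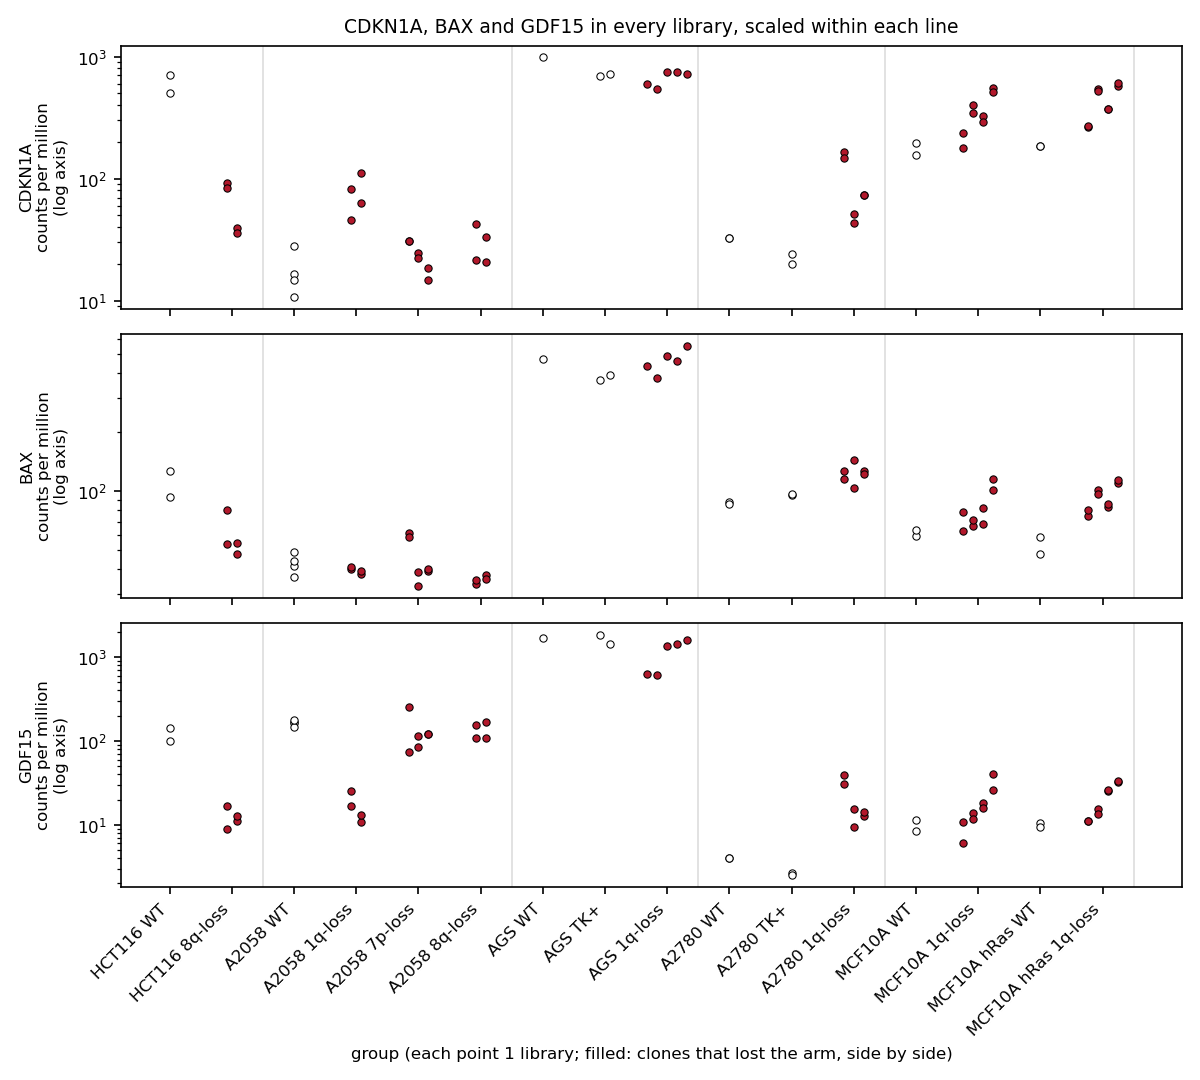
CPM of CDKN1A, BAX and GDF15 in all 62 libraries, ordered by line and group, on log axes. CDKN1A is lowest against its controls in HCT116 8q-loss and highest against them in A2058 1q-loss and A2780 1q-loss, while BAX spans a narrower range and GDF15 is low in HCT116 8q-loss and A2058 1q-loss.

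Across the 5 comparisons of 1q-loss, the members on that arm had these log2 fold changes. BTG2 was at -2.61 in A2058, where it passed the filter only through WT, rose in A2780 (0.73) and was not called in AGS (-0.11), MCF10A (-0.06) or MCF10A with hRas (0.07). PHLDA3 fell in A2058 (-1.47), was not tested in AGS and was not called in A2780 (0.50), MCF10A (-0.24) or MCF10A with hRas (0.03). The exons of PHLDA3 overlap a neighbouring gene of the same strand over 19.1% of their bases, so its counts are less certain than those of BTG2. In the tests over all clones MDM4 fell in A2058, AGS, A2780 and MCF10A and had a log2 fold change of -0.67 without a call in MCF10A with hRas (adjusted p = 0.0645, edgeR). The A2058 call held in all 19 alternatives. The call was lost in MCF10A without either WT library (adjusted p = 0.197 and 0.204, edgeR). It was lost in AGS without any 1 control or with WT alone (0.0632 to 0.44, edgeR), and in A2780 without either WT library, without TK+ replicate 2 or with only WT or only TK+ (0.0514 to 0.121, edgeR).

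The 15 DREAM genes gave few calls in the other loss comparisons too, most of which called few genes of any kind. EdgeR and DESeq2 each called 0 of them in A2058 8q-loss, AGS, MCF10A 1q-loss, MCF10A hRas 1q-loss and A2058 7p-loss. Of all tested genes edgeR called 2.03%, 7.55%, 2.04%, 0.214% and 0.908% there, so counts of 0 say little about the list. At an unadjusted p under 0.05 there were 2, 2, 2, 1 and 0 DREAM genes. That share of all tested genes was 25.8% in AGS, 11.8% in MCF10A 1q-loss, 14.3% in MCF10A hRas 1q-loss and 13% in A2058 7p-loss. In A2058 8q-loss 13 were below 0 (median log2 fold change -0.24, beside 0.01 for the p53 targets), and in AGS 14 were above 0 (0.51, beside 0.16). Only 3 of the 15 were higher in every AGS clone. AGS clones 1 and 4, set apart in CCNB1 above, held CDK1 at 109 and 124 CPM. The other AGS clones held 53.75 to 83.6 CPM and the controls 62.6 to 82.3. In both MCF10A comparisons all 15 were below 0 (-0.16 without and -0.24 with hRas, beside 0.31 and 0.47), and in A2058 7p-loss 12 were above 0 (0.11, beside 0.07). In A2058 1q-loss 2 rose and 1 fell, 20% beside the 49.6% of all tested genes called (median -0.03, beside 0.05).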

How the data were processed

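Raw counts per gene were deposited by the authors for 62 libraries, and the values are whole numbers. Per the submitters' processing notes, reads were aligned with HISAT2 2.0.5 to hg38 and counted with featureCounts 1.5.0-p3, with the strand setting not given in the sources used here. The tables of A2780 carry GRCh37 coordinates and the others GRCh38. Per the labels' protocols, cells grew for a day before Qiagen extraction, and libraries were made from poly-T-selected RNA.

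Samples were grouped by line, genotype and hRas status. After filterByExpr (minimum count 10, minimum total count 15) and TMM scaling, each comparison was fitted in edgeR 4.0.16 (glmQLFit, glmQLFTest, R 4.3.3), two-sided, with Benjamini-Hochberg adjustment over all genes tested. Each SE was derived from the fold change and its F statistic. CPM are TMM-scaled within a line. Clone tests, and AGS without clones 1 and 4, were added after seeing the data. Alternatives included DESeq2 1.42.0. The fit was tested on simulated data. Figures used matplotlib 3.10.9.

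The members and the lists of regulators, DREAM targets and lineage markers were chosen with earlier results of these data known. Named genes were drawn, per comparison, from up to 12 called members by size of change, the next ones up to 5 where fewer are called, members on the targeted arm, and CDKN1A, BAX, GDF15, MDM2 and MDM4; other members named for a clone, an overlap of groups or a role were chosen after their values were seen. Whether equal replicate numbers pair samples was checked from the correlations of their deviations. Pairing was accepted only with several correlations that all passed a cutoff, which no comparison reached. A2780 TK+ and hRas in WT had 1 correlation each (0.154 and -0.0111), so the check could not find pairing there. AGS and the interactions were not checked. No library was left out. Another gene under that rule is not reported here.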

Additional observations from a re-analysis of the deposited data

Results flagged for a closer look

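In 109 sets of values, each a named member in a group of 4 to 8 libraries, 11 held a library set apart from the others by Dixon's ratio, a test that marks about 1 in 20 sets by chance. In A2058, FDXR was at 6.01 CPM in 1q-loss clone 2 replicate 1, SAT1 at 62.9 CPM in 7p-loss clone 3 replicate 2 and GDF15 at 251 CPM in 7p-loss clone 1 replicate 2. In A2058 WT, BBC3 was at 3.56 CPM and RPS27L at 39.1 CPM in replicate 3, both high, and TP53INP1 was low at 7.83 CPM in replicate 4. FDXR was low at 74.2 CPM in A2780 1q-loss clone 5 replicate 2, where it still exceeded every control. EDA2R was high at 12.7 CPM in AGS 1q-loss clone 1. In the HCT116 8q-loss clones, RRM2B was low at 5.38 CPM in clone 1 replicate 1 and RPS27L at 21.7 CPM in clone 2 replicate 2. PHLDA3 was high at 100.1 CPM in MCF10A 1q-loss clone 4 replicate 1.

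The 8q-loss effect differed between HCT116 and A2058, in 1 edgeR model, at 6 members. The difference of log2 fold changes was -3.94 for CDKN1A, -2.95 for GDF15, -2.78 for CYFIP2, -2.19 for PHLDA3, -1.96 for BBC3 and -1.54 for RPS27L. CYFIP2 was not called in HCT116 alone and rose in A2058.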

How the results depend on the processing

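Where no share of all genes is printed, counts under alternatives, here and above, stand without it. They show how far a count moves and are not a result about the members. Counts of called members kept within 1.5 times the reported count in A2780 1q-loss and A2780 TK+ under each alternative other than leaving out a library. DESeq2 called 1 member for A2058 7p-loss (0 reported), 5 for A2058 8q-loss (3), 12 for HCT116 (6), 5 for AGS (1), 1 for MCF10A 1q-loss (0), 4 for MCF10A hRas 1q-loss (0), 1 for hRas within 1q-loss (0) and 10 for HCT116 against A2058 (6). Without a filter the counts were 14 for HCT116, 2 for AGS, 2 for MCF10A 1q-loss and 3 for hRas in WT (1), and a mean CPM of at least 1 gave 2 for AGS. With summed clones HCT116 gave 2 and HCT116 against A2058 gave 3. With WT replicates 3 and 4 only, A2058 gave 13 for 1q-loss (23) and 0 for 8q-loss, and AGS gave 0 with the WT control only and, as added after seeing the data, 3 without clones 1 and 4. The replicate block gave 0 for A2058 8q-loss, 2 for HCT116 (CDKN1A and GDF15) and 4 for hRas in WT, and the clone number as a block, added after seeing the data, gave 8 for hRas within 1q-loss. The replicate block within each line, also added then, gave 3 for HCT116 against A2058 (CDKN1A, GDF15 and CYFIP2). The replicate block moved no other count by over 1.5 times. No paired analysis was possible for AGS because its loss clones carry clone numbers, with 1 library each.

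Leaving out 1 library or 1 clone gave 17 to 23 for A2058 1q-loss, 0 to 2 for 7p-loss, 1 to 3 for 8q-loss, 0 to 12 for HCT116, 1 to 2 for AGS, 22 to 26 for A2780 1q-loss and 5 to 11 for TK+. In MCF10A it gave 0 to 6 for 1q-loss, 0 to 0 with hRas, 0 to 0 for hRas in WT, 0 to 5 for hRas within 1q-loss (5 without hRas clone 1, 1 without hRas clone 3) and 0 to 0 for the interaction. It gave 4 to 13 for HCT116 against A2058. No named member called in a comparison changed sign under an alternative. In simulated data without a clone effect, log2 changes of 1 were recovered for 5% of genes in HCT116, 66% in MCF10A and 74% in A2780. Unchanged genes called there numbered 3, 10 and 15.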
